A study of Arabidopsis thaliana with 8 samples.

Results

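The fiery1 and hyl1 mutants of Arabidopsis thaliana were compared by Specific Parallel Analysis of RNA Ends (SPARE), a method that sequences the 5′ ends of the fragments that remain when a MIRNA precursor is cut. The comparison used the 4 libraries titled Fiery1 and Hyl1, replicates 1 and 2 of each, out of 8 libraries in the series. The fiery1 seedlings were labelled Fiery1 -/- and the hyl1 seedlings Hyl1 -/-, and the alleles are not given in the labels. Both genotypes were 10-day-old seedlings grown in continuous light, and RNA was taken from material labelled whole bud of the seedling. The 2 wild-type (Col) libraries, of the same age and growth, are given beside the results as a reference. The 2 se libraries entered only the filter on low counts, the scaling and the estimates of spread, which the wild-type libraries entered too. The labels do not say whether the replicates came from separate plants, so the p-values measure the spread between libraries, which may be technical. Only MIRNA precursors were amplified, so the FIERY1 and HYL1 transcripts and tissue markers were not analysed here. The source name of hyl1 replicate 1 reads only Arabidopsis mutant, and its genotype label and its title both give Hyl1.

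A plant miRNA is cut out of a folded precursor by the nuclease DCL1, and HYL1, which binds double-stranded RNA, helps DCL1 to place its cuts. FIERY1, also called SAL1, is a phosphatase that removes a small nucleotide, PAP, which otherwise inhibits the XRN exoribonucleases that degrade uncapped RNA from its 5′ end. A precursor can be opened from its base towards the loop or from the loop towards its base. The 3′ part of the precursor that SPARE reads then starts either at the base-side site, just after the 3′ end of the small RNA strand on the 3′ arm, or at the loop-side site, the 5′ end of that same strand. Precursors of the MIR156, MIR159, MIR160, MIR162, MIR171 and MIR319 families are known to be opened from the loop, MIR159 and MIR319 by several cuts in sequence.

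The sites of the precursors whose ends differed most between the genotypes, and of MIR159b and MIR162a, lie on the following stretches of the 3′ arm, read from the TAIR10.1 reference, with the strand between the sites in capitals. A fragment cut at the loop-side site starts with the first capital, and one cut at the base-side site starts with the first small letter after the capitals.
MIR156a: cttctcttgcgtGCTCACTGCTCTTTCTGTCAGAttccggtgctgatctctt
MIR156c: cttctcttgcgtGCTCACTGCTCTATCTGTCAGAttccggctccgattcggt
MIR171c: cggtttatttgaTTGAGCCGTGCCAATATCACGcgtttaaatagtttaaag
MIR162a: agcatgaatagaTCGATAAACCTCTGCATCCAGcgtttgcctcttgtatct
MIR159b: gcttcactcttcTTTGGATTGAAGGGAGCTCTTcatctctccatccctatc
These stretches lie at chr2:10676452-10676503 for MIR156a, chr4:15415408-15415459 for MIR156c, chr1:22930077-22930127 for MIR171c and chr5:2634918-2634968 for MIR162a, all on the minus strand, and at chr1:6220801-6220851 on the plus strand for MIR159b. The strand in capitals and both sites lie within the annotated primary transcript of the MIRNA gene in each case, while the stretches of MIR156c, MIR171c and MIR159b run past its 3′ end. The first 26 bases from each of these sites matched 1 place in the genome, so tags that start there belong to 1 precursor. In MIR171c, MIR162a and MIR159b the capitals are the mature miRNA itself, and in MIR156a and MIR156c they are the partner strand of the miRNA.

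Tags of 26 nt or more were used, which made up 453388 and 795030 counts in fiery1 and 45108 and 25753 counts in hyl1, replicate 1 first here and throughout. The total counts, all tag lengths included, were 470789 and 821562 in fiery1 and 45653 and 35860 in hyl1. Such tags covered 87 and 88 precursors in fiery1 and 54 and 50 in hyl1. The longest tags, of 51 nt, held between 92.6% and 95.7% of these counts in the 4 libraries. The reads carry no molecular identifiers, so a large count at 1 position can come from few molecules. Values are relative within a library, and less of a fragment per cell cannot be told apart from fewer cells that hold it. The difference in depth between the genotypes touches every comparison below. Shares of counts do not depend on the total by construction, and calls and position counts are given at equal depth where that was run.

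The fiery1 libraries held more of their ends at the base-side site than the hyl1 libraries, and fewer at and above the loop-side site. Over the 71 precursors with an annotated 3′ arm strand and tags of this length, ends within 1 nt of the base-side site made up 69.6% and 68.1% of counts in fiery1 and 45.9% and 40.6% in hyl1. The groups did not overlap, and the means were 68.8% ± 1.07 and 43.3% ± 3.72 (SD, n = 2 each), 25.6 percentage points apart. The exact two-sided permutation test gave p = 0.33, the smallest that 2 libraries against 2 can reach. The wild-type libraries, at 43.0% and 45.8%, lay near the hyl1 libraries. Without the 3 precursors with the most counts, MIR398b, MIR159b and MIR169a, the difference was 27.6 points, and as a mean over precursors it was 26.2 points.

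Ends within 1 nt of the loop-side site made up 5.96% and 6.88% of counts in fiery1 and 12.3% and 15.1% in hyl1, a difference of -7.28 points (exact two-sided permutation p = 0.33, n = 2 each). Both genotypes lay below the wild-type libraries, which had 31.9% and 27.6% there. The loop-side difference rested in part on MIR159b, and was -4.72 points without it. Ends more than 1 nt upstream of the loop-side site made up 5.44% and 5.57% in fiery1 and 24.3% and 20.1% in hyl1, a difference of -16.7 points (exact two-sided permutation p = 0.33, n = 2 each), with 9.33% and 13.7% in wild type. The class includes ends before the annotated start of the primary transcript, such as position 9560355 of MIR779, with 394 and 150 counts in hyl1. This class was added after the values were seen.

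**Figure D1:**
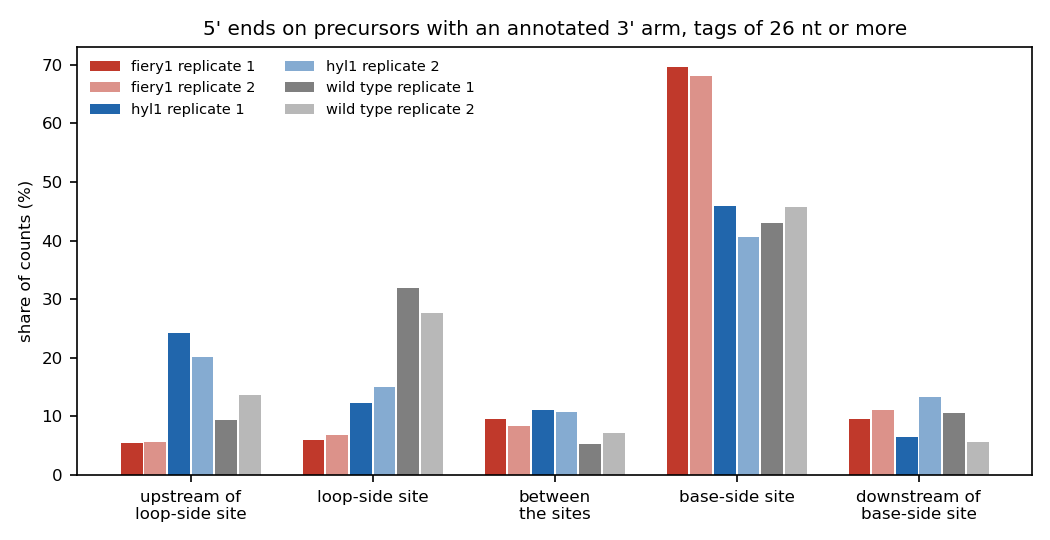
Share of counts (%) of tags of 26 nt or more in 5 classes of 5′ end position, over precursors with an annotated 3′ arm strand, with 1 bar per library of fiery1 (red), hyl1 (blue) and wild type (grey). The fiery1 bars stand at 69.6% and 68.1% at the base-side site, and the hyl1 bars are the highest upstream of the loop-side site, at 24.3% and 20.1%.

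The upstream ends of hyl1 came mostly from MIR159b and MIR398c. MIR159b, whose miRNA targets MYB transcription factors, gave upstream ends that made up 7.19% and 7.87% of the counts over these precursors in hyl1 and 1.82% and 2.52% in fiery1. Wild type had 8.199% and 9.54%. MIR398c, whose miRNA targets copper/zinc superoxide dismutases, gave 9.34% and 5.22% in hyl1 and 2.54% and 1.80% in fiery1. For MIR398c wild type had 0.765% and 3.09%, nearer to fiery1 than to hyl1. MIR398b followed with 1.91% and 0.867% in hyl1 and 0.145% and 0.178% in fiery1. Without these 3 precursors the upstream share was 1.69% ± 0.143 in fiery1 and 11.6% ± 1.42 in hyl1 (SD, n = 2 each).

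Summed over precursors, the base-side ends of fiery1 lay mostly at the precise base-side position and the one after it. The precise base-side position held 50.4% and 49.6% of counts in fiery1 and 40.8% and 31.4% in hyl1. The position 1 nt further downstream held 18.6% and 17.8% in fiery1 and 5.11% and 9.22% in hyl1. Counted at the precise position alone, the base-side difference between the genotypes was 13.9 points, so this neighbouring position carried a large part of the 25.6 points. In fiery1 most of its counts came from MIR169a, with 49427 and 88407 there, against 315 and 548 in hyl1. At its precise position MIR169a had 196 and 261 counts in fiery1 and none in hyl1. The main end of MIR157c also lay 1 nt downstream in both genotypes.

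Per precursor, the base-side share could be tested for the 25 precursors with at least 20 counts in each of the 4 libraries. With limma on the log odds of the share, it rose in fiery1 for 3 precursors and fell for none at an adjusted p under 0.05, which is 12% of those tested. A total of 14 precursors, or 56%, had both fiery1 libraries above both hyl1 libraries, and 3, or 12%, had both below. Without a threshold for multiple testing, 5 precursors had p under 0.05. The 3 called precursors, MIR156a, MIR171c and MIR156c, and the other 2 with an unadjusted p under 0.05, MIR162a and MIR159b, belong to the families opened from the loop. MIR156a alone was called without fiery1 replicate 1, without fiery1 replicate 2 and with a model term for the source name of hyl1 replicate 1. With 1 hyl1 library left out, the spread between the hyl1 replicates drops out of the fit, so calls made there are not read as support. The MIR169a difference in log2 odds, for example, was 2.38 without hyl1 replicate 1 and -1.50 without hyl1 replicate 2.

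MIR156a showed the clearest exchange of ends. Its miRNA targets SPL transcription factors, which promote the change from juvenile to adult growth. The base-side share was 80.5% and 85.9% in fiery1 and 0.136% and 0.183% in hyl1, the latter from 1 of 737 and 3 of 1640 counts. In wild type it was 21.7% in both libraries. The difference in log2 odds was 11.23 with SE 0.74 (limma, adjusted p = 0.000289, and 0.000354 when thinned, higher in fiery1 in 2 of 2 libraries; 0.000133 to 0.0116 over 17 alternative settings). The loop-side share ran the other way, at 5.33% and 6.84% in fiery1 and 75.3% and 78.6% in hyl1, with 78.2% in both wild-type libraries. The groups did not overlap, and the difference in log2 odds was -5.70 with SE 0.95 (limma, adjusted p = 0.00510). When thinned, the adjusted p of limma was 0.00918, and it ran from 0.00255 to 0.0449 over 17 settings. Here whole libraries were thinned to equal totals by 1 random draw, which leaves the totals of single precursors unequal. The first capital of the MIR156a stretch above, position 10676491, was thus the main end in both hyl1 libraries, with 410 and 956 counts. The first small letter after the capitals, position 10676469, was the main end in both fiery1 libraries, with 3200 and 6558 counts, and had 1 and 2 counts in hyl1.

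MIR156c, which encodes the same mature miRNA, had 95.2% and 92.4% of its ends at the base side in fiery1 and 13.5% and 2.53% in hyl1. The difference in log2 odds was 7.89 with SE 1.52 (limma, adjusted p = 0.0223, higher in 2 of 2 libraries). The adjusted p of limma was 0.0241 with libraries thinned to equal totals, and 0.00966 to 0.178 over 16 settings. Its loop-side share was 2.18% and 3.45% in fiery1 and 14.5% and 34.5% in hyl1, which did not pass the test (adjusted p = 0.298). The hyl1 libraries did not share a main end: in replicate 1 it lay 58 nt upstream of the base-side site with 233 counts, where replicate 2 had none, and in replicate 2 it lay 50 nt upstream with 52.2% of the counts, where replicate 1 had none.

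MIR171c belongs to a family that targets GRAS transcription factors of the HAM group. Its base-side share was 33.5% and 53.2% in fiery1 against 0% and 0.459% in hyl1. The wild-type libraries had 0.0454% and 0.0775%. The single base-side count of hyl1 stood against 577 and 218 counts of the precursor in all. The difference in log2 odds was 8.27 with SE 1.35 (limma, adjusted p = 0.0151, and 0.0109 when thinned, higher in 2 of 2 libraries; 0.00209 to 0.131 over 17 settings). In hyl1 its ends lay mostly downstream, with the main end 31 nt after the base-side site in replicate 1 and 38 nt after it in replicate 2. Its loop-side share was 3.54% and 3.92% in fiery1 and 19.1% and 0.917% in hyl1, so the libraries overlapped there.

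MIR162a encodes the miRNA that targets DCL1 itself. Its base-side share was 74.2% in both fiery1 libraries and 1.82% and 0.503% in hyl1, which rest on 110 and 199 counts of the precursor. The difference in log2 odds was 7.77 with SE 2.10 and did not pass the threshold (limma, adjusted p = 0.0750). With libraries thinned to equal totals the adjusted p of limma was 0.0406, and over 17 settings it ran from 0.00174 to 0.329. The main end of hyl1 replicate 1, with 91 counts 16 nt upstream of the base-side site, had no count in the other 3 libraries. The same held for the main end of replicate 2, with 129 counts 48 nt upstream.

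**Figure D2:**
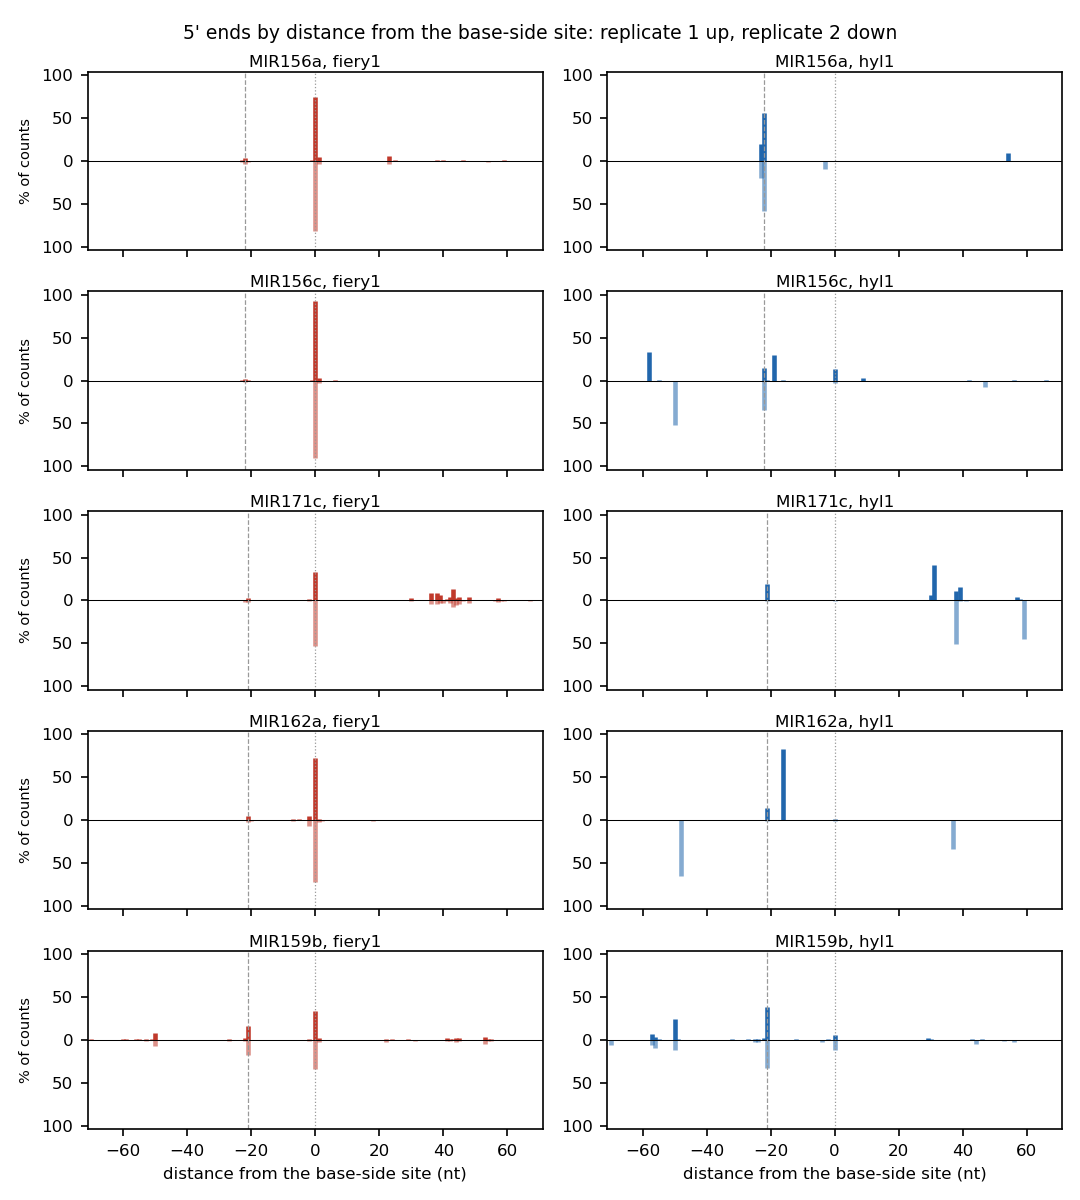
Share of each precursor's counts (%) by distance of the 5′ end from the base-side site (nt), for fiery1 (red) and hyl1 (blue), with replicate 1 drawn upwards and replicate 2 downwards. The dotted line marks the base-side and the dashed line the loop-side site, and ends more than 70 nt away are not drawn. MIR156a ends stood at the base-side site in fiery1 and at the loop-side site in hyl1, and MIR162a ends of hyl1 stood at different places in the 2 replicates.

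Several well-covered precursors differed in the same direction without passing the test. MIR159b had 36.2% and 37.7% base-side ends in fiery1 and 5.33% and 11.4% in hyl1 (limma, adjusted p = 0.137), against 6.97% and 3.95% in wild type. Its main end was the base-side site in both fiery1 libraries and the loop-side site in both hyl1 libraries, where its loop-side share was 39.7% and 32.6% against 18.4% and 19.1% in fiery1. A further end of MIR159b, 50 nt upstream of the base-side site, held 24.6% and 11.9% of its counts in hyl1 and 8.14% and 6.56% in fiery1. MIR157c, of the family next to MIR156, had 68.2% and 72.8% base-side ends in fiery1 and 32.6% and 50.7% in hyl1 (adjusted p = 0.183). MIR398c had 53.2% and 48.3% in fiery1 and 10.1% and 11.8% in hyl1 (adjusted p = 0.183). Among tags with a value of 0 in the deposited hits column that difference reversed, with a log2 odds difference of -6.64 (limma, adjusted p = 0.0107). MIR398b and MIR398c encode the same miRNA from neighbouring genes on chromosome 5, and no source used here says how tags were assigned between such copies. MIR408, whose miRNA targets copper proteins, had 71.5% and 72.6% in fiery1 and 53.4% and 53.6% in hyl1 (adjusted p = 0.381).

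In 6 other precursors both fiery1 libraries also lay above both hyl1 libraries. MIR396b, which targets growth-regulating factors, had 67.7% and 70.5% in fiery1 and 48.9% and 0% in hyl1. MIR399b had 22.2% and 31.2% against 9.67% and 0%, and MIR827, of the phosphate group, 38.8% and 49.8% against 8.79% and 0%. MIR825 had 25.1% and 30.3% against 1.56% and 0.714%, and MIR779 7.14% and 8.21% against none. MIR779 has the annotated 3′ arm strands miR779.1 and miR779.2, and ends near the sites of either were counted. MIR398b, the most abundant precursor, had 91.0% and 89.0% against 84.7% and 77.1%. None of these 6 passed the test (limma, adjusted p between 0.183 and 0.381). In 6 precursors the hyl1 replicates lay on both sides of the fiery1 libraries (MIR160a, MIR166a, MIR167a, MIR169a, MIR171b and MIR399c). MIR171b, for example, had 71.4% and 70.4% in fiery1 and 97.9% and 0% in hyl1. MIR319b had no base-side end in the 4 libraries.

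A group of precursors had nearly all ends at the base side in both genotypes. MIR165a, which targets HD-ZIP III factors, had 97.5% and 96.9% base-side ends in fiery1 and 99.4% and 99.1% in hyl1. MIR166b, of the same target group, had 92.8% and 95.8% in fiery1 and 100% of 576 and 423 counts in hyl1. MIR393b, which targets auxin receptors, had 91.6% and 92.9% in fiery1 and 100% of 29 and 20 counts in hyl1. These 3 were the precursors with both fiery1 libraries below both hyl1 libraries, and none passed the test (limma, adjusted p between 0.183 and 0.4997). MIR399a, whose miRNA targets the phosphate regulator PHO2, had 100% base-side ends in all 4 libraries. At the level of families, the 8 testable precursors of the loop-first list held 59.7% base-side ends in fiery1 and 8.32% in hyl1 (means of the libraries over all counts of the 8), 3 of them were called higher, and their median difference was 37.8 points. The 13 of the base-first list held 79.6% and 62.2%, none was called, and their median difference was 9.13 points. The 3 outside all lists, MIR157c, MIR779 and MIR825, held 22.1% in fiery1 and 35.0% in hyl1, although their median difference was 26.5 points. These pooled shares weigh each precursor by its counts. Over all 25 the median difference was 22.0 points.

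**Figure D3:**
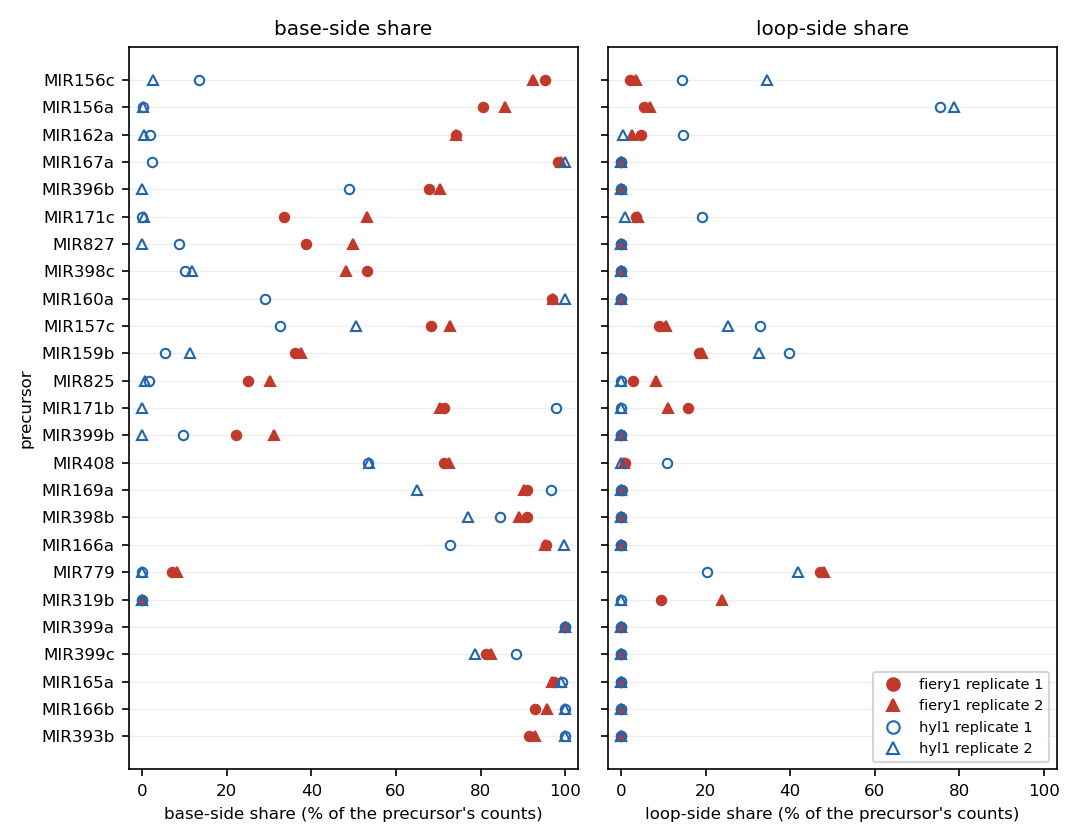
Base-side share (left) and loop-side share (right), in % of the counts of each of 25 precursors, with filled red symbols for fiery1 and open blue symbols for hyl1 (circle: replicate 1, triangle: replicate 2). In the base-side share the fiery1 replicates lay at most 19.7 points apart. Those of hyl1 were more than 40 points apart in 4 precursors, such as MIR167a at 2.38% and 100%.

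For the loop-side share limma called 2 precursors higher and 7 lower in fiery1, which are 8% and 28% of the 25, or 36% in either direction. In 6 precursors, or 24%, both fiery1 libraries lay above both hyl1 libraries, and in 4, or 16%, below. Of the 7 lower calls, 5 were of precursors without a loop-side count in any of the 4 libraries (MIR165a, MIR167a, MIR393b, MIR398b and MIR399c), and MIR160a had 1 such count in all, in fiery1. Their log odds differed through the offset of 0.5 over unequal totals, and these 6 are not read as changes. MIR156a was the remaining lower call. The 2 higher calls were MIR825, with 2.85% and 8.197% in fiery1 (adjusted p = 0.0312), and MIR319b, a family that targets TCP factors, with 9.49% and 23.9% (adjusted p = 0.0381). Neither had a loop-side count in hyl1, where 0 of 204 and 0 of 98 counts allow a share of up to 1.47% and 3.06% if each count is a separate molecule. In each hyl1 library most counts of either precursor lay at 1 position, such as 74 of 75 for MIR319b in replicate 1. The limits may therefore be too low. Without fiery1 replicate 1 there were 5 loop-side calls and without replicate 2 there were 3, MIR156a among both. With libraries thinned to equal totals, which leaves precursor totals unequal, MIR825 was not called (limma, adjusted p = 0.0762). MIR319b then had too few counts to be tested. The calls were then MIR156a and MIR399a, the latter without a loop-side count in any of the 4 libraries. MIR779 had the highest loop-side share of the 25 in fiery1, at 46.9% and 48.0%, with 20.3% and 41.9% in hyl1 (adjusted p = 0.298). This share counts ends near the loop-side site of either annotated strand, miR779.1 or miR779.2. Most lay at that of miR779.2, with 15319 and 22472 counts in fiery1 and 143 and 203 in hyl1.

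The hyl1 replicates shared few of their end positions, while the fiery1 replicates shared most. Of the positions seen in fiery1, 1116 of 1228, or 90.9%, were in both replicates, and of those in hyl1, 83 of 338, or 24.6%. Depth differs between the genotypes, so the overlap of the position profiles was also taken with each precursor thinned to the same count in the 4 libraries. The median overlap over 25 precursors was then 89.4% between the fiery1 replicates, 54.3% between the hyl1 replicates and 43.2% between genotypes. It was higher between the fiery1 replicates in 21 of 25 precursors, and under 5% between the hyl1 replicates in 7. Among positions with at least 0.1% of a library's counts, none of 100 in either fiery1 library lacked a count in the other replicate. In hyl1, 70 of 122 and 37 of 81 did, and they held 22.1% and 21.2% of the counts. In wild type 15 of 69 and 38 of 91 did.

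The main end was the same position in both replicates for 23 of 25 precursors in fiery1 and for 13 in hyl1, and the same in all 4 libraries for 11. It lay within 1 nt of the base-side site for 20 and 21 precursors in fiery1 and for 12 in each hyl1 library. MIR156a and MIR159b were the 2 precursors whose replicates had 1 main end within each genotype and different ones between genotypes. At an equal depth of 25753 counts the fiery1 libraries covered 813 and 821 positions and the hyl1 libraries 213 and 180.0 (exact two-sided permutation p = 0.33, n = 2 each). Before thinning, the hyl1 libraries covered 241 and 180 positions. The wild-type libraries, which were not thinned, covered as few, 170 and 236 from 56554 and 121429 counts. The reads carry no molecular identifiers, so equal counts need not mean equal numbers of molecules. The chance that 2 counts of a precursor share a position, as a median over the 25 precursors, was 54.7% and 54.3% in fiery1 and 67.7% and 60.0% in hyl1. With a minimum of 50 counts instead of 20 the libraries overlapped in this measure and the difference moved from -9.35 to -2.25 points. It was -25.4 points without hyl1 replicate 1 and -16.1 points without hyl1 replicate 2. More precursors met the minimum in these settings, 30 and 40, so the sets differ from the 25.

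**Figure D4:**
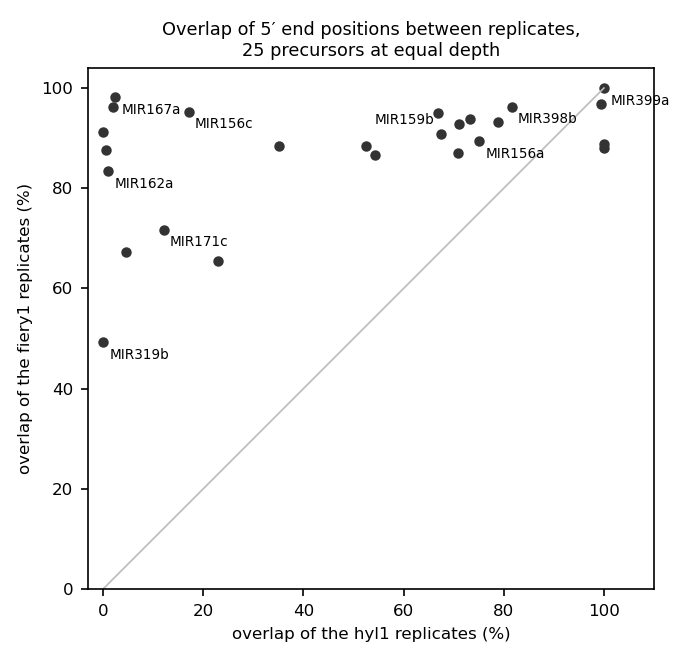
Overlap of 5′ end positions (%) between the 2 fiery1 replicates (vertical axis) against that between the 2 hyl1 replicates (horizontal axis), with 1 point per precursor thinned to equal counts and the line of equal overlap in grey. Points lie above the line for 21 of 25 precursors, with MIR319b at 49.3% in fiery1 and 0% in hyl1.

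In abundance, 74 precursors could be tested. With edgeR's quasi-likelihood test and Benjamini-Hochberg adjustment, 8 were higher in fiery1 (10.8%) and 3 lower (4.05%), and 25 had an unadjusted p under 0.05. With the size factors of DESeq2 in edgeR the calls were 9 higher and 8 lower. The libraries did not overlap for 54 precursors, or 73%. All 8 higher calls had no count in either hyl1 library, as did 17 of the 74 tested. Among the 44 tested precursors with counts in both hyl1 libraries, none was higher and 3 were lower, with a median log2 fold change of 0.10. Over all 74 the median was 1.22 with the TMM scaling used here and 1.55 with library totals, and 0.11 with the size factors of DESeq2. With each precursor that lacks hyl1 counts set to its fold over the floor it was 0.67. Without fiery1 replicate 1, and likewise without replicate 2, edgeR called none, with 6 and 8 precursors at an unadjusted p under 0.05. DESeq2 on all libraries called 21 precursors, 7 higher and 14 lower, which shared 3 calls with edgeR (MIR157c, MIR166b and MIR399a) and none of the 8 higher ones. With a model term for the source name, which differs for hyl1 replicate 1, edgeR called none, with 29 precursors at an unadjusted p under 0.05. The labels do not say whether that name marks a separate batch. With a model term for the replicate number edgeR also called none, and the labels do not say whether these numbers pair the libraries. Without hyl1 replicate 1 there were 6 calls, which included MIR157c, MIR166b and MIR399a, and without hyl1 replicate 2 there were 2, which included MIR157c.

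The 3 precursors lower in fiery1 were among the larger ones of hyl1. MIR157c (AT3G18217, chr3:6244500-6244716, minus strand) held 1.79% and 1.95% of the fiery1 libraries and 9.68% and 12.2% of the hyl1 libraries, with 8.30% and 6.77% in wild type. It fell by 3.05 on the log2 scale with SE 0.53 (edgeR, adjusted p = 0.0238, lower in 2 of 2 libraries). MIR399a (AT1G29265, chr1:10227073-10227195, plus strand) held 0.124% and 0.189% in fiery1 against 1.72% and 1.64% in hyl1, with 1.97% and 1.30% in wild type, and fell by 3.89 with SE 0.83 (adjusted p = 0.0282). MIR166b (AT3G61897, chr3:22922206-22922325, plus strand) held 0.123% and 0.0781% in fiery1 against 1.28% and 1.64% in hyl1, with 2.09% and 0.931% in wild type, and fell by 4.32 with SE 1.08 (adjusted p = 0.0343). Without the most used position of each precursor the MIR166b value turned to 8.66 (adjusted p = 0.193). In hyl1 all of its 576 and 423 counts lie at that position. In none of the 3 did the fiery1 and hyl1 libraries overlap. Their miRNAs are shown with bases 2 to 8, the seed, in capitals, next to the miRNA of MIR156a, whose seed is shifted by 1 base against that of miR157c.
miR157c-5p: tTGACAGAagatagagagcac
miR156a-5p: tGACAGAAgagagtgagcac
miR399a: tGCCAAAGgagatttgccctg
miR166b-3p: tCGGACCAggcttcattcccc

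The 8 precursors called higher were small in fiery1 and without counts in hyl1, where the floor of 3 counts per library stands at a mean of 112 CPM (counts scaled by TMM library size). MIR395c and MIR395f, of the family that targets ATP sulfurylases and a sulfate transporter, were at least 5.09-fold and 3.79-fold higher in fiery1. They held 0.0637% and 0.0726%, and 0.0395% and 0.0636%, of the fiery1 libraries. MIR397a, which targets laccases, was at least 3.69-fold higher, MIR168b, which targets AGO1, at least 2.58-fold, and MIR171a at least 2.27-fold. MIR771, MIR447a and MIR162b were at least 2.19-fold, 1.61-fold and 1.30-fold higher. Their adjusted p ran from 0.0238 to 0.0471 (edgeR), and of the 8 MIR395c was called at equal depth. In the wild-type libraries 7 of these 8 had no count and MIR168b had 1, so the levels of hyl1 and wild type cannot be told apart at this depth. Counts in both fiery1 and no hyl1 library were found for 28 precursors, of which 17 had shares above the hyl1 floor in both fiery1 libraries. The largest of these, MIR395b, had 1931 and 3338 counts in fiery1 and 1 and 3 in wild type, at least 31.8-fold higher than hyl1, but did not pass the test (adjusted p = 0.0629). MIR2111b was seen in hyl1 alone of the 2 genotypes, with 125 counts in replicate 1. Both were singled out after their values were seen.

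The 10 precursors with the highest mean share held between 73.9% and 80.3% of each library. MIR398b led with 16.9% and 13.2% in fiery1 and 26.3% and 16.8% in hyl1. MIR159b held 9.19% and 14.6% in fiery1 and 14.7% and 17.6% in hyl1, and MIR398c 14.3% and 10.4% against 10.6% and 7.35%. MIR169a, which targets NF-YA factors, held 12.02% and 12.4% in fiery1 and 0.723% and 3.27% in hyl1. Its log2 fold change of 1.95 with SE 0.84 did not pass the test (edgeR, adjusted p = 0.143), although the libraries did not overlap. MIR779 held 7.37% and 6.13% against 1.57% and 1.88% (adjusted p = 0.105), and MIR156c 6.39% and 5.25% against 1.55% and 1.23% (adjusted p = 0.123). MIR156a held 0.944% and 1.01% in fiery1 and 1.63% and 6.37% in hyl1 (adjusted p = 0.105). MIR408 and MIR399c completed the list, with fiery1 shares between 3.64% and 4.99% and hyl1 shares between 4.01% and 9.58%.

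**Figure D5:**
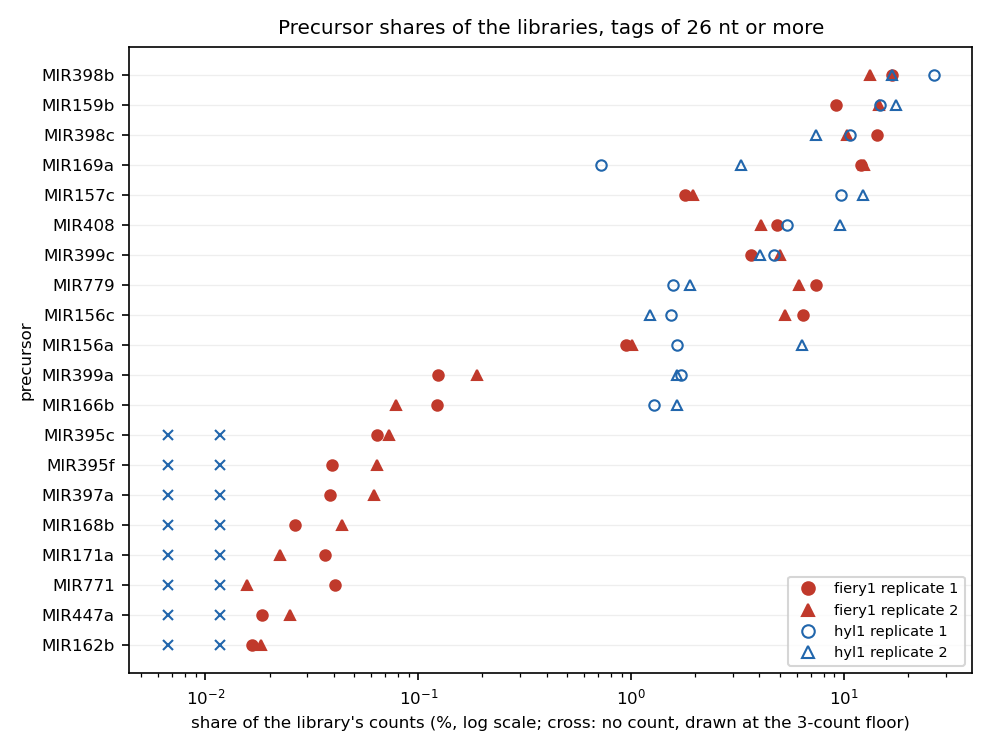
Share of the library's counts (%, log axis) of the 10 precursors with the highest mean share and of the 11 called by edgeR, MIR157c being in both groups (red: fiery1, blue: hyl1; circle: replicate 1, triangle: replicate 2). Crosses are hyl1 libraries without a count, drawn at their floor of 3 counts, and MIR157c, MIR399a and MIR166b lie to the left in fiery1.

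By family lists, read against 10.8% higher and 4.05% lower over all 74 precursors, the loop-first list had 2 of 17 tested precursors higher (MIR162b and MIR171a) and none lower, with a median log2 fold change of -0.60, which lies below the median of all precursors. The base-first list had 4 of 38 higher (MIR168b, MIR395c, MIR395f and MIR397a) and 2 lower (MIR166b and MIR399a), with a median of 1.34 when precursors without hyl1 counts are set to their fold over the floor. Of the sulfate family MIR395, 2 of 4 were higher. Of the phosphate list, MIR399 and MIR827, 1 of 4 was lower. Of the copper list, MIR397, MIR398, MIR408 and MIR857, 1 of 4 was higher, and of the silencing-pathway list, MIR162, MIR168, MIR403 and MIR838, 2 of 5 were. Precursors outside these families had 2 of 18 higher (MIR447a and MIR771) and 1 lower (MIR157c). All 8 higher calls were of precursors without a hyl1 count, which could not come out lower. Such precursors made up 4 of 17 tested in the loop-first list, 9 of 38 in the base-first list and 3 of 4 of MIR395. They were 1 of 4 in the copper list, 2 of 5 in the silencing-pathway list and 4 of 18 outside. The higher counts are therefore not read as results about the families.

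Position by position, edgeR called 105 of 360 tested positions higher in fiery1 (29.2%) and 5 lower (1.39%), or 79 higher and 23 lower with the size factors of DESeq2. Of the 105, 79 had no hyl1 count, as did 154 of the 360 tested. Positions without a hyl1 count could not come out lower in fiery1, so the filter and the depth favour higher calls. With libraries thinned to equal depth none of 242 positions was called at an adjusted p under 0.05, while 76 had an unadjusted p under 0.05. DESeq2 called 50, 20 higher and 30 lower, of which 12 were among the 110 calls of edgeR. Without fiery1 replicate 1 there were 6 calls and without fiery1 replicate 2 none, with 14 positions at an unadjusted p under 0.05, and without hyl1 replicate 1 or 2 there were 11 and 13. Of the higher positions, 37 of 123 tested lay downstream of the base-side site and 26 of 72 at it. The 5 lower positions had counts in all 4 libraries. They were the loop-side site of MIR156a, with 0.0355% and 0.0416% of the fiery1 libraries and 0.909% and 3.71% of the hyl1 libraries (log2 fold change -5.21, SE 1.45, adjusted p = 0.0305), and that of MIR157c, with 0.104% and 0.192% against 2.90% and 3.09% (log2 fold change -3.60, adjusted p = 0.0180). The others were the base-side sites of MIR399a and MIR166b and a position of MIR398c that lies 84 nt upstream of its base-side site, with 0.0697% and 0.0891% against 5.64% and 1.83% (log2 fold change -4.77, adjusted p = 0.0114). The largest rise was at MIR398c, 72 nt downstream of its base-side site, with 4150 and 5919 counts in fiery1 and none in hyl1. The base-side site of MIR395b, with 1376 and 2095 counts in fiery1 and none in hyl1, and the loop-side site of MIR825, with 128 and 734 against none, were among the 8 largest rises.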

How the data were processed

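Per the labels' protocols, processing intermediates in total RNA were ligated to an RNA with T4 RNA ligase, cDNA was made with primers specific to the precursors, and PCR enriched the products. The authors deposited, per library, each tag with its precursor, start, length, a hits column and its raw count. Cutadapt and TAIR10 are named in the submitters' processing notes, while no source used here gives an aligner. Blank counts (13, all in fiery1, 10 of them of miR408) were left out. Entries lying within 5 nt on the genome were summed, which made 108 precursors of 111 entries. Tags were placed on TAIR10.1 by exact match, which held for 99.57% of counts. Counts of tags of 26 nt or more were summed by precursor and 5′ position. The 3′ arm strand, and so both sites, came from the reference annotation (85 precursors). Where more than 1 strand was annotated on the 3′ arm, as for MIR779, the sites of each were used. Sites were counted within 1 nt.

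Abundance was tested with edgeR 4.0.16 (TMM, filterByExpr with a minimum count of 10) and shares with limma 3.58.1 (logit, offset 0.5, at least 20 counts in each of the 4 libraries), in models of all 8 libraries with 1 term per genotype and Benjamini-Hochberg adjustment over all features tested. Both were tested on simulated data. Library measures were compared by exact permutation, with 6 arrangements. Thinning used 100 seeded draws for position counts and for overlaps of positions. The tests with libraries thinned to equal totals rest on 1 seeded draw. Alternatives used DESeq2 1.42.0, other scalings, filters, tag lengths, windows and samples. Where hyl1 had no count, folds were taken over a floor of 3 counts per library. Floors cover counting error only. Named were the 10 precursors of highest mean share, the called ones whose libraries did not overlap, and the largest differences in end shares. The precursors and lists were chosen with earlier results of these data known.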

Additional observations from a re-analysis of the deposited data

Results flagged for a closer look

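The deposited hits column was used by no comparison above, and no source used here says what it counts. The share of counts of tags of 26 nt or more with a hits value above 0 was 18.4% and 13.3% in fiery1 and 11.9% and 7.68% in hyl1. In the wild-type libraries it lay between 2.25% and 4.26%, and this excess over wild type is what singled the values out. Its part in the results was not tested beyond the repeats with hits of 0 given below.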

How the results depend on the processing

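The number of precursors called for abundance moved from 11 to 17 with DESeq2 size factors in edgeR, 3 without a filter on low counts, 21 with DESeq2, 28 with only the 4 libraries compared, and 17 with hits of 0 only (added after seeing the data). edgeR called 0 with a term for the source name, with all tags and without the most used position of each precursor, where 29, 19 and 11 had an unadjusted p under 0.05. Leaving out 1 library gave 0 to 6. The labels do not say whether the replicate numbers pair the libraries. The correlation of deviations between fiery1 and hyl1 was 0.22 over precursors and 0.022 over positions. Over precursors this was the highest of the genotype pairs, and the lowest was -0.139. With 1 difference per genotype these values cannot decide it. With the replicate block edgeR called 0 precursors (23 unadjusted) and 4 positions. It left the base-side count at 3 and made the loop-side count 8. Position calls moved from 110 to 2 without the filter, 50 with DESeq2, 336 with the 4 libraries, 344 with all tags, 0 when thinned (76 unadjusted) and 0 to 13 with 1 library left out. Base-side calls moved from 3 to 8 with the 4 libraries, 1 with the source-name term and 1 to 10 with 1 library left out, and loop-side calls from 9 to 2 when thinned and 3 to 11 with 1 library left out.

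The library base-side difference was 20.8 points with hits of 0 and 13.9 at the exact position, and 22.9 to 28.2 with 1 library left out. The loop-side difference was -4.72 points without MIR159b and -3.67 as a mean over precursors, and -8.65 to -5.92 with 1 library left out. The upstream difference was -11.9 points with hits of 0, -9.89 without MIR159b, MIR398b and MIR398c, and -13.7 without MIR159b. The difference in distinct positions was 709 with all tags, 478 for positions with at least 2 counts, and 617 to 678 with 1 library left out. The difference in the chance that 2 counts share a position was -2.25 points at a minimum of 50 counts. It was -25.4 to -9.11 with 1 library left out, over sets of 25 to 40 precursors. None of these library measures changed direction under the settings run.

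Among single precursors, these values changed sign, and the cause was not tested. For abundance (log2 fold change) they were MIR397a with all tags (-0.138), and, without the most used position, MIR166b (8.66), MIR398b (0.0491), MIR159b (0.763), MIR399c (1.46) and MIR156c (-0.449). MIR398c was at -0.965 with DESeq2 size factors and -0.966 with DESeq2, -0.466 without the filter, -0.533 when thinned, and -0.0588 to 0.795 with 1 library left out. For the base-side share (log2 odds) MIR157c was at -1.59 at the exact position, MIR160a at -3.20 with the source-name term, MIR166b (0.168) and MIR169a (-0.101) changed with tags of 30 nt or more, MIR398c (-6.64) with hits of 0, and MIR399c (2.21) with the source-name term. With 1 library left out, MIR160a ran from -3.20 to 6.34, MIR167a from -3.38 to 11.3, MIR169a from -1.50 to 2.38, MIR171b from -4.01 to 9.87 and MIR399c from -0.769 to 0.289. For the loop-side share MIR162a was at -0.0331 when thinned, -0.206 at the exact position, -0.198 with an offset of 1, and -2.24 to 2.29 with 1 library left out. MIR171c was at 0.982 with the source-name term, 0.532 with all tags and -2.61 to 1.75 with 1 library left out, and MIR408 at -3.43 at the exact position and -3.91 to 5.33 with 1 library left out. The hyl1 depth limits these single values, since the smallest testable precursor had 20 counts in a hyl1 library.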
